A study of Mus musculus with 4 samples.

Results

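The genes described here serve the presentation of antigen by MHC class II, and 8 were listed. They were H2-Aa, H2-Ab1 and H2-Eb1 (chains of the class II molecules), Cd74 (the invariant chain), H2-DMa and H2-DMb1 (the peptide editor H2-M), Ctss (cathepsin S) and Ciita (the class II transactivator). For each gene, of the probe sets that the array annotation assigns to it alone, the one with the largest mean over the 4 arrays was used. On that rule 7 of the 8 were measured, among 18193 genes in all. H2-DMb1 has no probe set of its own, and 2 probe sets carry its symbol together with that of H2-DMb2.

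Expression arrays had been run on treated skin of female wild-type BALB/c mice, 2 on skin given MC903 and 2 on Control skin given ethanol. MC903, or calcipotriol, is an analogue of vitamin D that provokes a dermatitis in mouse skin. All mice, those of the Control group included, had first been sensitised on the ear with MC903 and ovalbumin, an egg-white allergen, and had been fed ovalbumin. MC903 or ethanol then went onto the skin, a second oral dose of ovalbumin followed, and skin was taken. The ages of the mice, the site of the treated skin, the number and timing of applications, and whether the arrays of a group come from separate animals are not given in the sources used here, so a p-value here reflects spread among samples that may be technical. The deposited signals share a trimmed mean of 500, and their medians were 90.2 and 99.6 on the MC903 arrays, against 109 and 99.7 on the Control arrays. Bacterial TrpnX control probe sets, taken as a guide to background, had signals of 1.55 to 24. The keratins Krt5 and Krt14, which define keratinocytes, had signals of 27480 to 39813 over the 4 arrays.

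Class II molecules carry peptides from taken-up protein to the surface of dendritic cells, Langerhans cells, macrophages and B cells, where CD4+ T cells read them. An alpha and a beta chain fold in the endoplasmic reticulum around the invariant chain, endosomal proteases including cathepsin S trim the invariant chain to a short remnant, and H2-M exchanges that remnant for antigen peptide. Transcription of the chains, the invariant chain and H2-M depends on Ciita, a co-activator that interferon gamma induces in many cell types and that binds no DNA itself. It acts through factors of the RFX and NF-Y families, which sit on an X box and a Y box shortly before the start site.

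These boxes are the shared sequence of the class II genes. The stretches that hold them are shown because, of the listed genes, H2-Aa, H2-Eb1 and H2-DMb1 share the boxes with other class II genes below. The sequences are those of RefSeq, build GRCm38.p6, from the C57BL/6J strain and not from BALB/c. The capitals mark GNAAC, the core of the X box, and TGATTGG, the Y box.
H2-Aa: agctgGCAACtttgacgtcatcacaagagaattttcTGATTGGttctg
H2-Eb1: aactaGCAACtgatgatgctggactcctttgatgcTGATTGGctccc
H2-DMb1: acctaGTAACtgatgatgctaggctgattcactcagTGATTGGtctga
H2-Eb2: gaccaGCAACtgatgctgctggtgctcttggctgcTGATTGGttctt
H2-Oa: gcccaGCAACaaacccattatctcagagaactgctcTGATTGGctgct
H2-Ob: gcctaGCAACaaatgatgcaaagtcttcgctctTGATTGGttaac
H2-DMb2: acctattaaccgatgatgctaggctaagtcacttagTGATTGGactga
The H2-Aa stretch is chr17:34287862-34287909 on the minus strand and that of H2-Eb1 is chr17:34305771-34305817 on the plus strand. The others, all on the plus strand, are H2-DMb1 at chr17:34153092-34153139, H2-Eb2 at chr17:34325538-34325584, H2-Oa at chr17:34092298-34092345, H2-Ob at chr17:34238813-34238857 and H2-DMb2 at chr17:34145121-34145168. Both strands were searched in promoter windows of 250 bases before to 50 bases after the start site, and the spacing of 25 to 35 bases from the first base of GNAAC to the first base of TGATTGG was chosen after these promoters had been read. Of 8 class II genes with a promoter sequence, 7 held TGATTGG, which 7.82% of 32851 promoters hold, and 6 held the pair in that spacing, which 0.323% of all promoters hold. H2-DMa held neither in its 2 windows, and the H2-DMb2 window held the Y box alone. No promoter sequence was available for H2-Ab1, Cd74, Ciita and H2-Ea, so these were not searched. Of the listed genes that were measured, only H2-Aa and H2-Eb1 are therefore shown to hold the pair. A match describes letters and is no binding site or cause.

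The whole window of H2-Aa, chr17:34287774-34288073 on the minus strand, shows where the pair lies, the X core starting 81 bases and the Y box 50 bases before the start site.
H2-Aa: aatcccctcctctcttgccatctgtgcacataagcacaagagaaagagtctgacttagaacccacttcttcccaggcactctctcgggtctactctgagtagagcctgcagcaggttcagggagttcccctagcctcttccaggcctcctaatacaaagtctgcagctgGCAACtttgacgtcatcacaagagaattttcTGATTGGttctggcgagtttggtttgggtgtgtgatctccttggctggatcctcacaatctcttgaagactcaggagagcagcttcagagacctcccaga
Ctss held neither box. Its window, chr3:95526536-95526835 on the plus strand, is shown because it holds, 21 bases before the start site, GAAA, any 2 bases, GAAA (in capitals), the core of an interferon-stimulated response element. That motif, searched on both strands, was in 3.44% of all promoters.
Ctss: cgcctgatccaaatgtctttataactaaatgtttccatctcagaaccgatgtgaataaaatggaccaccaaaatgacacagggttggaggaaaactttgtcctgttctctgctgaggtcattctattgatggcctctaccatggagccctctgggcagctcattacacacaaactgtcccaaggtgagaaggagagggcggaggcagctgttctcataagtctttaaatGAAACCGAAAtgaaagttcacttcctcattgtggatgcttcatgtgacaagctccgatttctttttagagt

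The chain genes had higher signals on both MC903 arrays than on both Control arrays. H2-Aa, the alpha chain of I-A, had signals of 20948 and 21949 in MC903 skin, against 13181 and 16649 in Control skin. H2-Ab1, its beta chain, stood at 8864 and 8716 in MC903 skin and at 5256 and 5882 in Control skin. H2-Eb1, the beta chain of I-E, stood at 10473 and 11831 in MC903 skin and at 7102 and 7912 in Control skin. The groups did not overlap for any of the 3, while 21.6% of all genes were higher in MC903 skin without overlap. The brightest signal, 21949 for H2-Aa, lay under the highest signals of the arrays (41771 to 50150). The differences, MC903 minus Control on the log2(signal + 16) scale, were 0.53 ± 0.19 for H2-Aa, 0.66 ± 0.16 for H2-Ab1 and 0.57 ± 0.17 for H2-Eb1 (SE, n = 2 per group). In linear terms these were 1.45-fold, 1.58-fold and 1.48-fold.

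The invariant chain gene was likewise higher on both MC903 arrays than on both Control arrays, as were 21.6% of all genes. Cd74 had signals of 12456 and 12269 in MC903 skin, against 7680 and 9471 in Control skin. Its log2 difference of 0.53 ± 0.18 (SE, n = 2 per group) stood 0.05 under the mean of the 3 chain genes, 0.59, and the groups overlapped when Cd74 was set against the chains on each array.

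The genes of H2-M, the peptide editor, were measured on the chosen probe set of H2-DMa and on shared ones. H2-DMa, its alpha chain, had signals of 1816 and 1736 in MC903 skin, against 1032 and 1274 in Control skin, which gives 0.62 ± 0.18 on the log2 scale (SE, n = 2 per group). The 2 probe sets that carry both H2-DMb1 and H2-DMb2, the beta chain genes, differed by 0.60 ± 0.21 and 0.62 ± 0.18. The brighter of them stood at 1608 and 1882 in MC903 skin and at 1174 and 1084 in Control skin. Neither of the 2 overlapped between groups (19.9% of probe sets with 1 symbol were higher without overlap). How far they report H2-DMb1 cannot be told, because H2-DMb2 on its own probe sets was also higher in MC903 skin, by 0.92 ± 0.27 on the one with the highest mean.

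Ctss, whose cathepsin S trims the invariant chain in antigen-presenting cells, had the largest difference of the 7. Its signals were 13280 and 9990 in MC903 skin, against 5400 and 5799 in Control skin. The log2 difference was 1.04 ± 0.21 (SE, n = 2 per group), or 2.06-fold, and 548 of the 18193 genes had a larger one. The next largest, that of H2-Ab1, was 0.66 ± 0.16, and the 6 other genes lay between 0.42 and 0.66, spaced by less than their standard errors. Set on each array against the median of those 6, each gene taken relative to its own Control mean, Ctss stood at 0.72 and 0.26 in MC903 skin and at 0.06 and -0.06 in Control skin. Both MC903 arrays exceeded both Control arrays in this contrast, replicate 1 by more than replicate 2. Ctss had the largest difference of the 7 on these same arrays, so an excess here follows in part from that and is no separate support. The 2 Control values mirror each other by construction, each gene being taken relative to its Control mean.

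Ciita, the regulator, was dim. Its signals were 177 and 167 in MC903 skin and 121 and 128 in Control skin, above the background controls on every array. The difference of 0.42 ± 0.15 (SE, n = 2 per group) was the smallest of the 7 with the processing used here, but not with quantile normalization (Ciita 0.54, H2-Aa 0.32) or without Control replicate 1 (Ciita 0.38, H2-Aa 0.36). The constant of 16 added before the logarithm understates the differences of dim genes.

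**Figure D1:**
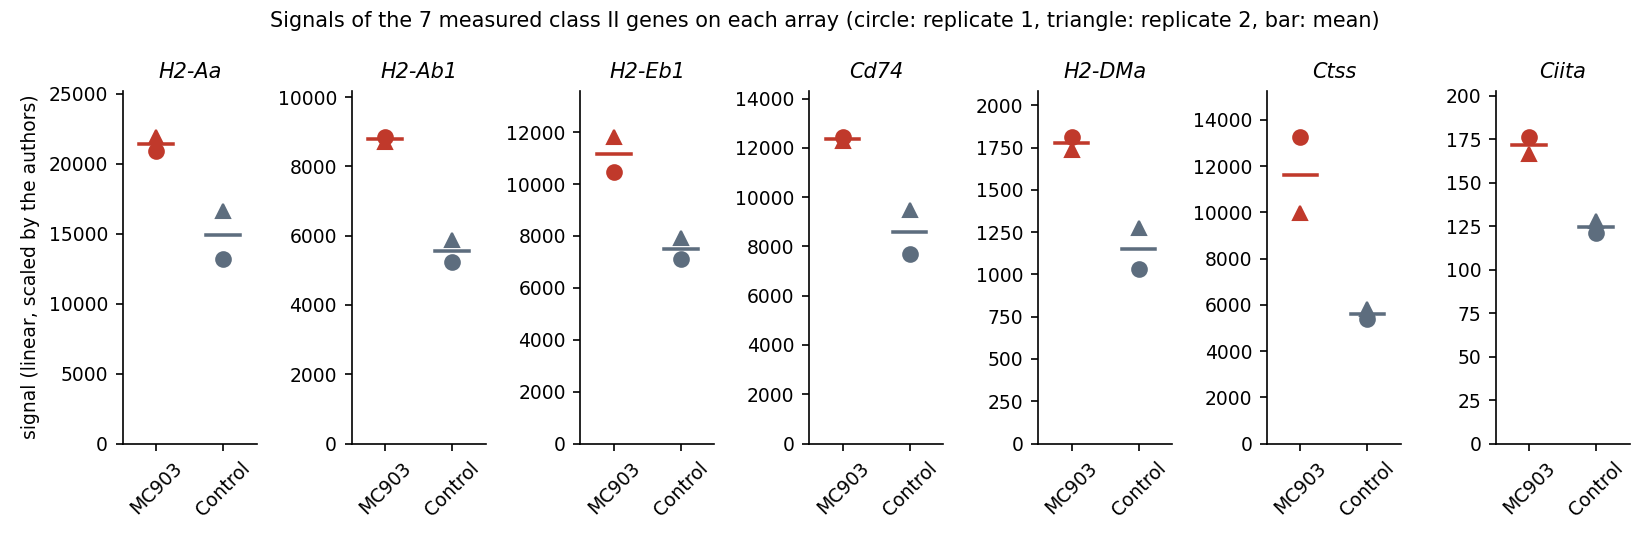
Linear signals (y axis, as deposited, starting at 0, a separate scale for each gene) of the 7 measured genes on the 2 MC903 and 2 Control arrays; circles are replicate 1, triangles replicate 2, bars group means. Every MC903 array lies above both Control arrays for each gene, as for 21.6% of all genes. The MC903 arrays lie farthest apart for Ctss (13280 and 9990).

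None of the 7 listed genes passed the test across all genes. limma with a constant prior variance, Benjamini-Hochberg adjusted over 18193 genes, called 0 of the 7 at an adjusted p below 0.05, and 0% of all genes, higher or lower. The adjusted p of the 7 ran from 0.1997 (Ctss) to 0.327 (Ciita). With a prior variance that follows the signal it again called 0 of the 7, against 0.539% of all genes called higher and 0.385% called lower, and the smallest adjusted p were 0.0628 (Ctss) and 0.0796 (H2-Ab1). Without adjustment 7 of 7 had a p below 0.05 with the constant prior, against 6.82% of all genes higher and 8.39% lower at that level, and 6 of 7, all but Ciita, with the prior that follows the signal, against 7.67%. Both MC903 arrays lay above both Control arrays for 7 of 7, as for 21.6% of all genes, while 28.2% lay below. Among genes with a mean signal of 100 or more, as the 7 have, these shares were 22.2% and 33.5%. None of the 7 was at least 2-fold higher whichever MC903 and Control arrays were paired, as 1.16% of all genes were (0.813% were lower to that extent). The median log2 difference of the 7 was 0.57, against -0.04 over all genes tested. With 2 arrays a group, 0.333 is the smallest two-sided p of an exact permutation test.

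The other probe sets of these genes split by brightness. H2-Aa, H2-Ab1, H2-DMa and Ciita had more than 1 probe set, 8 further ones in all. Of these, 4 were higher on both MC903 arrays without overlap, as 19.9% of single probe sets were, and all 4 were bright probe sets of H2-Aa and H2-Ab1, with differences of 0.56 to 0.81. The further 4 overlapped between groups, had signals of 17.7 to 153, and differed by -0.03 (H2-DMa), -0.0048 and 0.26 (Ciita) and 0.47 (H2-Aa). Every probe set of H2-Aa and H2-Ab1, and that of Cd74, has a suffix (_x_at, _s_at or _a_at) that marks probes shared between transcripts or genes. Whether related transcripts contribute to these signals was not tested. With all probe sets of a gene averaged, H2-DMa differed by 0.30 and Ciita by 0.22, and with quantile normalization H2-Aa differed by 0.32. The chosen probe sets of H2-Eb1, H2-DMa, Ctss and Ciita have no such suffix.

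**Figure D2:**
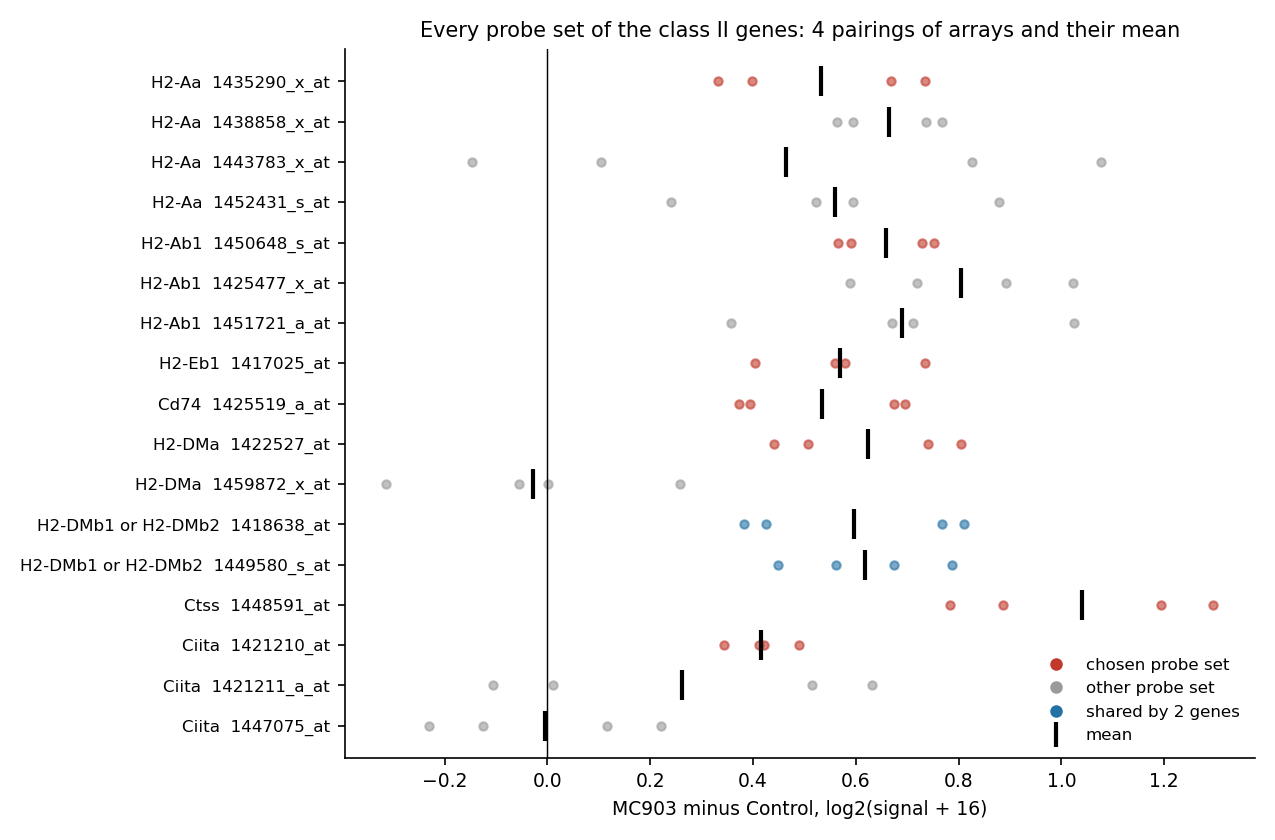
Difference between MC903 and Control (x axis, log2(signal + 16)) for each of the 15 probe sets of the measured genes and the 2 shared by H2-DMb1 and H2-DMb2; dots are the 4 pairings of an MC903 with a Control array and the bar is their mean. All 4 pairings lie above 0 for the 7 chosen probe sets and for both shared ones (19.9% of all probe sets with 1 symbol). Of the rest, 4 dim probe sets straddle 0.

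Other class II genes were followed from a list of chains and modifiers. H2-Ea, the alpha chain of I-E, is annotated as a pseudogene in the C57BL/6J reference but is a working gene in BALB/c mice. It stood at 12855 and 15824 in MC903 skin and at 9687 and 11786 in Control skin, a difference of 0.42 ± 0.20. A bright further probe set, at 4945 and 6306 in MC903 skin and 3308 and 4651 in Control skin, differed by 0.51 ± 0.26. A dim one, at 16.4 and 15.8 in MC903 skin and 24.3 and 20.6 in Control skin, lay the other way. H2-DMb2 stood at 1179 and 811 in MC903 skin and at 585 and 441 in Control skin. H2-Oa and H2-Ob, the chains of H2-O, which restrains H2-M mainly in B cells, were dim, with signals of 48.8 to 130 over both genes. Of the 5 measured genes of this list, 3 (H2-Ea, H2-DMb2 and H2-Oa) were higher in MC903 skin without overlap (21.6% of all genes), 2 overlapped, and the median difference was 0.38. For H2-Oa the margin was only 0.006 on the log2 scale, with MC903 replicate 2 at 50.6 and Control replicate 1 at 50.4.

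Most of these genes are neighbours on chromosome 17, in a run from H2-Oa to H2-Ea that also holds class I processing genes. It was laid out after the values had been seen. In the order of the reference annotation the run holds 16 genes, of which 14 were measured, 4 of them listed class II genes. Of the 10 others, 7 were higher in MC903 skin without overlap (21.6% of all genes), 0 were lower (28.2%), 3 overlapped (Brd2, H2-Ob and H2-Eb2), and the median difference was 0.53. H2-Oa is among the 7 by a margin of only 0.006. Apart from Brd2, the 10 are also in the list of chains and modifiers or that of class I genes. These counts therefore repeat values of those lists. The proteasome subunit Psmb8 differed by 1.17 ± 0.26, Psmb9 by 0.99 ± 0.25, and the peptide transporter genes Tap1 and Tap2 by 0.65 ± 0.21 and 0.65 ± 0.19. Brd2, which encodes a reader of acetylated chromatin and lies between H2-Oa and H2-DMa, differed by -0.17 ± 0.18.

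**Figure D3:**
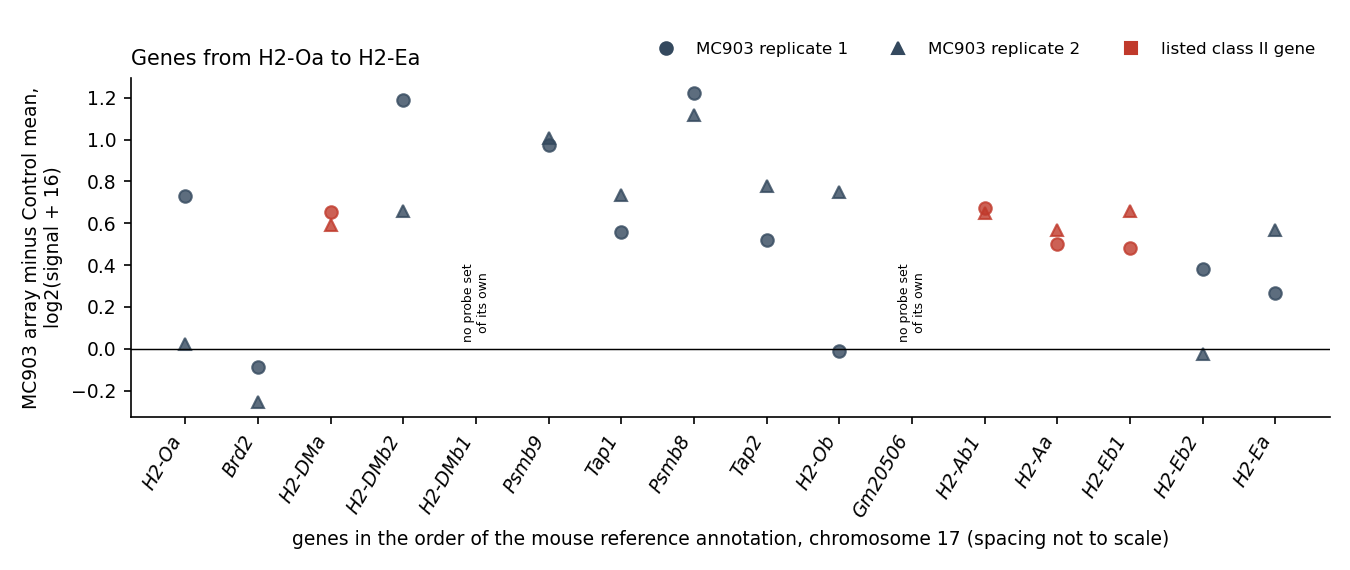
Each MC903 array minus the mean of the 2 Control arrays (y axis, log2(signal + 16)) for genes in their order along chromosome 17 from H2-Oa to H2-Ea (x axis, not to scale); red marks the listed class II genes, circles MC903 replicate 1 and triangles replicate 2. Both arrays lie above 0 for the class I genes Psmb9 to Tap2 and for H2-Ab1, H2-Aa and H2-Eb1, and both lie below 0 for Brd2.

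Genes of interferon gamma signalling, which induces Ciita, were followed as a list. The interferon gamma gene Ifng had signals of 9.01 and 44.3 in MC903 skin and 2.72 and 24.3 in Control skin, which overlap and reach into the range of the background controls. Its receptor chain Ifngr2 stood at 1104 and 1089 in MC903 skin and at 608 and 493 in Control skin (0.98 ± 0.18). Irf1, the transcription factor that carries the interferon signal to the Ciita gene, differed by 0.35 ± 0.16, and Socs1, which restrains interferon signalling, by 0.88 ± 0.25. Of 7 measured genes of interferon gamma signalling 5 were higher without overlap (21.6% of all genes), with a median of 0.50.

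Genes for the factors that bind the X and Y boxes had no common direction. Of 7, 0 were higher without overlap, 2 were lower, and the median difference was 0.0012. Rfx5, a subunit of the RFX complex, had signals of 541 and 459 in MC903 skin and 494 and 499 in Control skin, a difference of 0.0049 ± 0.17. Nfyb, a subunit of the Y box factor NF-Y, stood at 914 and 967 in MC903 skin and at 1336 and 1466 in Control skin, a difference of -0.57 ± 0.16. Creb1, a factor of the X box region, differed by -0.29 ± 0.21. Both of these stood lower in MC903 skin without overlap, as did 28.2% of all genes.

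Endosomal processing genes other than Ctss mostly stood higher in MC903 skin. Of 11 such genes, 8 were higher (21.6% of all genes) and 2 (Sppl2a and Marchf8) lower (28.2% of all genes) without overlap, and the median difference was 0.50. Lgmn, an endosomal protease that cuts after asparagine, stood at 7020 and 2300 in MC903 skin and at 1833 and 1586 in Control skin (1.23 ± 0.57). The cathepsin gene Ctsz stood at 12008 and 5043 in MC903 skin and at 3862 and 3477 in Control skin (1.08 ± 0.45). These 2 had the widest gaps between the MC903 arrays in the list, and Ctsd, at 13277 and 13057 in MC903 skin, differed little between them. Costimulation gives the T cell its second signal, and the list for it also held genes of inhibitory ligands and the receptor gene Cd40. Its median was 0.56 over 8 genes, 6 of them higher without overlap (21.6% of all genes). Cd86 differed by 1.12 ± 0.19, and Pdcd1lg2, an inhibitory ligand of activated presenting cells, by 2.07 ± 0.41. Class I presentation genes had a median of 0.69 over 10 genes, 9 of them higher without overlap (21.6% of all genes).

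Cells that carry class II molecules were followed by their markers, and in whole skin more cells of a type and more RNA per cell cannot be told apart. Over 12 macrophage and monocyte markers the summed signal was 64045 and 39205 in MC903 skin, against 28407 and 26773 in Control skin, and 11 were higher (21.6% of all genes) and 1 (Mertk) lower (28.2%) without overlap. The scavenger receptor gene Cd163 stood at 7891 and 2094 in MC903 skin and at 1395 and 1163 in Control skin (1.66 ± 0.67). Mrc1, another, stood at 14284 and 4941 in MC903 skin and at 3829 and 2509 in Control skin (1.43 ± 0.58). Over 13 dendritic and Langerhans cell markers the sum was 6793 and 6644 in MC903 skin and 5899 and 4990 in Control skin. Of these markers, 8 were higher (21.6% of all genes) and 1 (Clec10a) lower (28.2%) without overlap. Among the 8, Xcr1 was apart by only 0.002 on the log2 scale, with MC903 replicate 2 at 65.6 and Control replicate 1 at 65.5. Zbtb46, also among the 8, lay within the background range on Control replicate 2, at 23.2. Itgax, the gene of CD11c, stood at 786 and 681 in MC903 skin and at 341 and 324 in Control skin (1.10 ± 0.17), whereas Cd207, the langerin gene of Langerhans cells, stood at 846 and 1459 in MC903 skin and at 1184 and 1655 in Control skin (-0.33 ± 0.34), with overlap. Ccr7, which guides dendritic cells to lymph nodes, stood at 157 and 72.4 in MC903 skin and at 38.5 and 7.77 in Control skin. Irf4, a factor of dendritic cell subsets, stood at 167 and 226 in MC903 skin and at 157 and 15.8 in Control skin. For both genes the signal of Control replicate 2 lay within the background range, so the size of the difference is not given.

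B cell markers were dim, at 2.04 to 147. Their summed signal over 7 genes was 367 and 314 in MC903 skin and 283 and 284 in Control skin, 1 of the 7 (Ms4a1) was higher without overlap (21.6% of all genes), and Cd79a lay within the background range on every array. Cd79b differed by 0.48 ± 0.32, with overlap. Cr2, at 2.04 and 24.8 in MC903 skin and 2.47 and 7.04 in Control skin, was within the background range on 3 of the 4 arrays. Fcer2a and Blk lay the other way, at -0.20 and -0.11, also with overlap. T cells carry no class II molecules in mice, and their 7 markers summed to 1864 and 1783 in MC903 skin and 982 and 1124 in Control skin. Of these, 5 were higher without overlap (21.6% of all genes), Cd2 differing by 1.40 ± 0.23 and Cd3d by 1.26 ± 0.36. Cd4, also among the 5, stood at 18.0 and 67.9 in MC903 skin and at 10.3 and 12.8 in Control skin. It was within the background range on 3 of the 4 arrays. Cd3e, a chain of the T cell receptor complex, stood at 195 and 137 in MC903 skin and at 102 and 52.8 in Control skin. The leukocyte gene Ptprc, encoding CD45, stood at 2711 and 2218 in MC903 skin and at 1397 and 1558 in Control skin, a difference of 0.73 ± 0.19. The part of any of these cells in the class II values was not tested.

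Keratinocyte markers went both ways, 4 of 7 higher (21.6% of all genes) and 3 lower (28.2%) without overlap, and of the fibroblast markers 0 were higher and 4 of 6 lower. Among genes with a mean signal of 100 or more, 33.5% were lower. Keratinocyte markers had a median of 0.11 over 7 genes, Krt1 differing by 1.30 ± 0.17 and Krt15 by -0.57 ± 0.15. Dermal fibroblast markers had a median of -0.22 over 6 genes, Col1a1 differing by -0.70 ± 0.17 and Col1a2 by -0.46 ± 0.17. Of all the genes of these lists, limma called 0 with the constant prior and, with the prior that follows the signal, Krt1 alone.

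**Figure D4:**
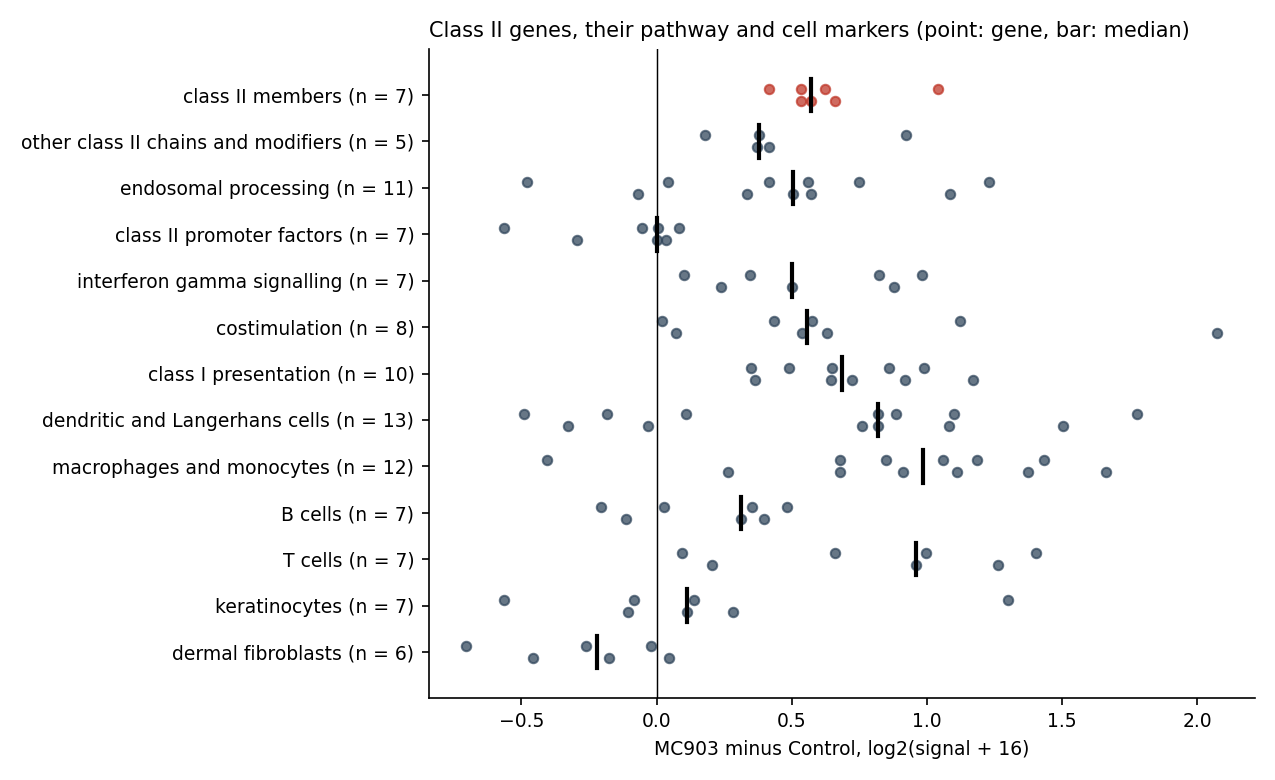
Difference between MC903 and Control (x axis, log2(signal + 16)) of each measured gene in the class II list, its pathway lists and the cell marker lists; points are genes and bars list medians. The 7 class II genes lie between 0.42 and 1.04, the box-binding factors spread around 0, and the macrophage list has the highest median of the lists drawn.

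The replicates differed in some gene groups more than in others. Between the MC903 arrays, macrophage markers were higher in replicate 1 for 10 of 12 genes (48.1% of all genes), with a median log2 difference between replicates of 0.64, and endosomal genes for 9 of 11, with a median of 0.20. Ctss exceeded its Control mean by 1.24 in replicate 1 and 0.83 in replicate 2, whereas H2-Aa did so by 0.50 and 0.57, H2-Eb1 by 0.48 and 0.66, and Cd74 by 0.55 and 0.52. Between the Control arrays, replicate 2 was higher for 7 of the 7 class II genes (49.5% of all genes), by a median of 0.16, and for 9 of 10 class I genes, by a median of 0.36. Against Control replicate 1 alone the class II differences are larger, and against Control replicate 2 alone smaller: the median is 0.70 without replicate 2 and 0.47 without replicate 1.

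**Figure D5:**
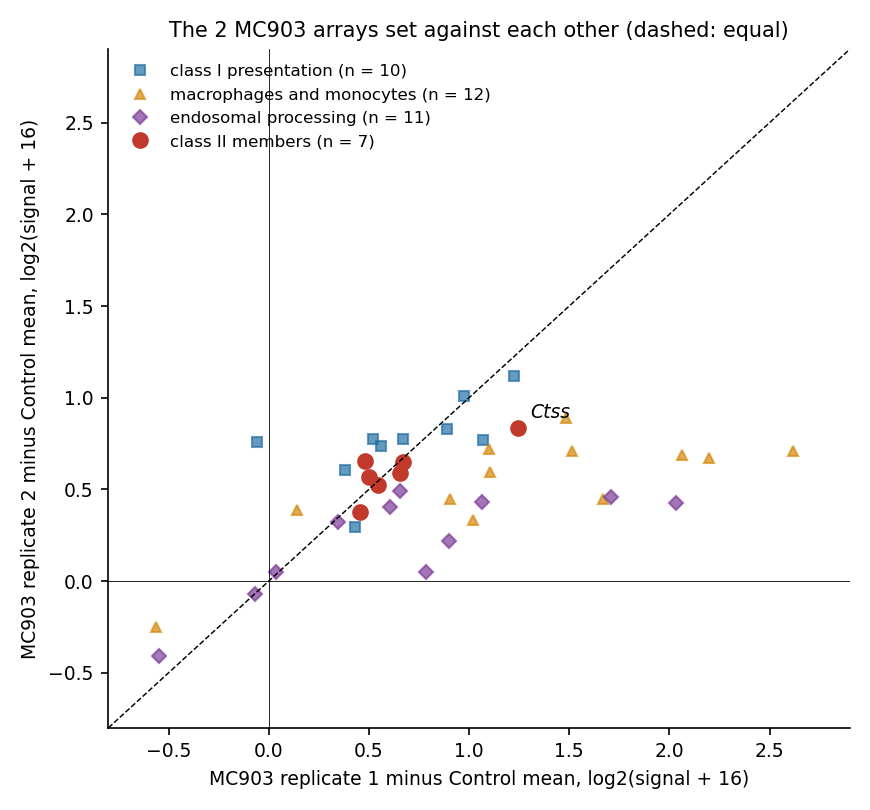
MC903 replicate 1 (x axis) and replicate 2 (y axis), each minus the mean of the 2 Control arrays on the log2(signal + 16) scale; points are genes of 4 lists and the dashed line marks equal values. Macrophage markers (10 of 12) and endosomal genes (9 of 11) lie mostly below the line, and class II genes other than Ctss lie close to it.

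The genes with the most similar pattern over the 4 arrays were sought among 11780 others with a mean signal of at least 100. Likeness was the Euclidean distance between log2 profiles, each centred on its own mean, and the mean profile of the 7. The 5 nearest were Tomm40l, Sox7, Sephs2, Cd40 and Grb2, at distances of 0.07 to 0.10, and they differed by 0.54 to 0.58 between groups. Of them Cd40 encodes a receptor on antigen-presenting cells through which T cells activate them, with signals of 214 and 205 in MC903 skin and 131 and 148 in Control skin. The listed genes themselves lay at 0.05 (H2-Ab1) to 0.49 (Ctss) from their mean, and 1666 of the other genes lay nearer to it than Ctss. With 4 arrays this likeness is a description only.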

How the data were processed

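The deposited table holds intensity values of 45101 probe sets on 4 arrays, linear and, tested on the values, scaled by the authors to equal trimmed means (2% off each end) but not quantile normalized. RNA was extracted with a kit for fatty tissue and 200 ng was biotin-labelled, per the labels' protocols. For these intensity values the sources used here name no software.

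Of the probe sets, 64 array controls were left out, 34945 had 1 gene symbol and 932 several. Symbols came from the platform annotation, updated by gene ID through RefSeq (34741 matched). For each gene the probe set with the highest mean log2(signal + 16) was used, with no filter or further normalization. Choosing by the log2 mean rather than the linear mean was settled after both had been run, to match earlier processing of these data; the other choice is given among the settings. Groups come from the sample titles. limma 3.58.1 in R 4.3.3 compared 2 MC903 with 2 Control arrays over 18193 genes (2 residual and 2.32 prior degrees of freedom, or 3.72 with a prior that follows the signal). It was run on simulated data with larger changes than those of the listed genes, so that check does not cover changes of their size. The number of arrays limits the precision. No 2 arrays were identical.

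The listed genes and gene lists were chosen with earlier results of these data known. Named genes were the listed ones, the 2 with the largest absolute difference in each other list, genes of interest here and the 5 nearest. Tap1, Tap2, Brd2, H2-Oa, H2-Ob, Krt5, Krt14, Cd79a, Mertk, Sppl2a, Marchf8, Clec10a, Ms4a1, Ctsd, Fcer2a, Blk and H2-Eb2 were named after their values were seen. So were Xcr1, Zbtb46 and Cd4. The same replicate numbers mark no shared animal in the labels.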

Additional observations from a re-analysis of the deposited data

How the results depend on the processing

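Under 14 other settings 97 of 97 differences of the 7 listed genes stayed above 0. Where all arrays were kept, 0 passed an adjusted p of 0.05. Not all of the 97 are separate checks. The filters on dim genes, the prior that follows the signal and a replicate block cannot change a gene's difference. Preferring probe sets without a shared-probe suffix chose the same ones for the listed genes. These settings repeat the main differences and do not test their sign. The reversals were single dim probe sets, Ciita at -0.0048 and H2-DMa at -0.028, and the cause was not tested. The median of the listed genes, 0.57, was 0.47 to 0.70 when each array was left out in turn, lowest without Control replicate 1 and highest without Control replicate 2, and 0.54 to 0.65 under other scalings, constants, filters and probe set choices. With 1 array left out, the single array of its group takes its spread from the other group.

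The count of all genes called was 0, and it was 70 with a constant of 64, 3 with quantile normalization or centring, 36 and 190 without the dimmest 25% and 50% of genes, 12 with probe sets averaged, 168 with the prior that follows the signal and 5 with probe sets chosen by linear mean (added after seeing the data). The cause was not tested. A replicate block left the median at 0.57 and called 0 genes. Same-numbered arrays deviated with a correlation of -0.06 over all genes and -0.12 over genes with a mean signal of 100 or more, and the crossed pairing, added after seeing the data, also called 0 genes. Ciita is left out by the stricter filter on dim genes, so 6 listed genes remained there.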
